A study of Mus musculus with 20 samples.

Results

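In mouse E14 embryonic stem cells, 149 of 8084 transcripts measured by RNA-seq of polysome gradients (1.84%) sat in the light part of the gradient and stayed there when Rpl10a was knocked down. They were chosen by 4 measured limits, all on the scale of log2(value + 1) averaged over replicates. The heavy pool minus the light pool had to be at or under -1.1 in cells given control siRNA. The change with Rpl10a siRNA had to be within 0.3 of equal in the 2 pools and under 0.5 in size in the heavy pool. The footprints captured with RPL10A had to differ by under 0.6, in either direction, from the total footprints of the same line. These transcripts are called light-staying here, and the values that chose them are given as a description, with no test.

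The RNA-seq libraries came from wild-type cells transfected with either 1 siRNA against Rpl10a or a universal negative control siRNA, both with Lipofectamine. For each siRNA there were 2 libraries of a heavy pool, with at least 4 ribosomes per mRNA, and 2 of a light pool, which held all other fractions including polysomes of 2 to 3 ribosomes. Ribosome profiling (Ribo-Seq, the sequencing of the mRNA pieces that ribosomes shield from RNase) came from 3 other lines, each with 1 tagged allele at the endogenous locus, namely 3xFLAG-Rpl10a, Rps25-3xFLAG and Rpl22-3xHA. Every line gave 2 libraries from immunoprecipitated (IP) ribosomes and 2 from all ribosomes of the lysate (total), and all cells of the series received 100 µg/ml cycloheximide for 1 min.

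On a sucrose gradient an mRNA sediments by its load: free mRNA and mRNA with few ribosomes stay light, while mRNA with many ribosomes runs heavy. A short coding sequence has room for few ribosomes however often it is initiated, and an mRNA that is rarely initiated also stays light, so a light position alone does not give the translation rate. RPL10A and RPL22 are proteins of the large ribosomal subunit and RPS25 of the small one, and each tag lies on part of the ribosomes of its line.

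The transcripts carry UCSC identifiers that the tables used here did not pair with genes, so no gene is named, no sequence is printed, and neither pluripotency markers nor the level of Rpl10a in the knockdown was analysed here. Read depth is unknown, because the deposited values are scaled. RNA-seq values (RPM, reads scaled to library size) are relative within each library, so a change is relative to the other transcripts of the same pool, and fewer cells holding a transcript cannot be told apart from less of it per cell. Separate cultures are not stated for the replicates, and every p-value below therefore rests on the spread of these samples alone, which may be technical.

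Of the 8084 transcripts, 662 (8.19%) were at or under the light limit with control siRNA. Among these, 310 (46.8%) changed nearly equally in both pools, against 41.3% of all transcripts. A further 341 moved toward the heavy pool and 11 toward the light pool. Of the 310, 94 had a heavy-pool value lower by 0.5 or more and 20 a value higher by 0.5 or more, which left 196, and the RPL10A limit then removed 25 with a high and 22 with a low ratio. At the other end of the gradient, 704 transcripts sat at or above 1.1 with control siRNA, and of these 97 (13.8%) changed nearly equally in both pools while 607 moved toward the light pool. The position with control siRNA that placed these transcripts is also a term of the movement. Noise in the control libraries therefore favours movement away from either end, and its share in these counts was not tested.

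The limits cut through continuous values. The light-staying transcript nearest to the position limit, uc009ikj.2, was at -1.11, and the nearest one left out, uc007udr.1, was at -1.098. For the equal change the values were 0.298 for uc008bve.1 inside and 0.3002 for uc009cae.2 outside. For the heavy-pool change they were -0.499 for uc012dvz.1 inside and -0.505 for uc008kiv.1 outside, and for the RPL10A ratio they were -0.599 for uc008nmm.2 inside and 0.601 for uc009irh.1 outside. Of the 149, 71 were found again with replicate 1 of every group alone and 81 with replicate 2 alone, and 41 were in both of these lists. Without the second heavy library of Rpl10a siRNA 63 were found again, without the first heavy library of control siRNA 79, and without the first heavy library of Rpl10a siRNA 89.

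Light-staying transcripts covered a wide stretch of the gradient. With Rpl10a siRNA, heavy minus light ranged from -2.91 to -0.85 with a median of -1.37, where the median of all transcripts was 0.16. With control siRNA it ranged from -3.20 to -1.11 with a median of -1.47 and an SD over transcripts of 0.43, where the median of all transcripts was -0.04. Both heavy libraries were below both light libraries for 149 of 149 in Rpl10a siRNA cells and for 149 of 149 in control siRNA cells. Over all transcripts these percentages were 29.9 with Rpl10a siRNA and 41.5 with control siRNA, and nothing is read from the counts because the rule used them. Taken as single replicate numbers, the highest heavy minus light value was -0.46 with Rpl10a siRNA and -0.79 with control siRNA, so each replicate of every light-staying transcript was on the light side. Being on that side was not particular to them. Averaged over replicates, 339 (99.4%) of the 341 light transcripts that moved toward heavy were also below 0 with Rpl10a siRNA, with a median of -0.95.

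**Figure D1:**
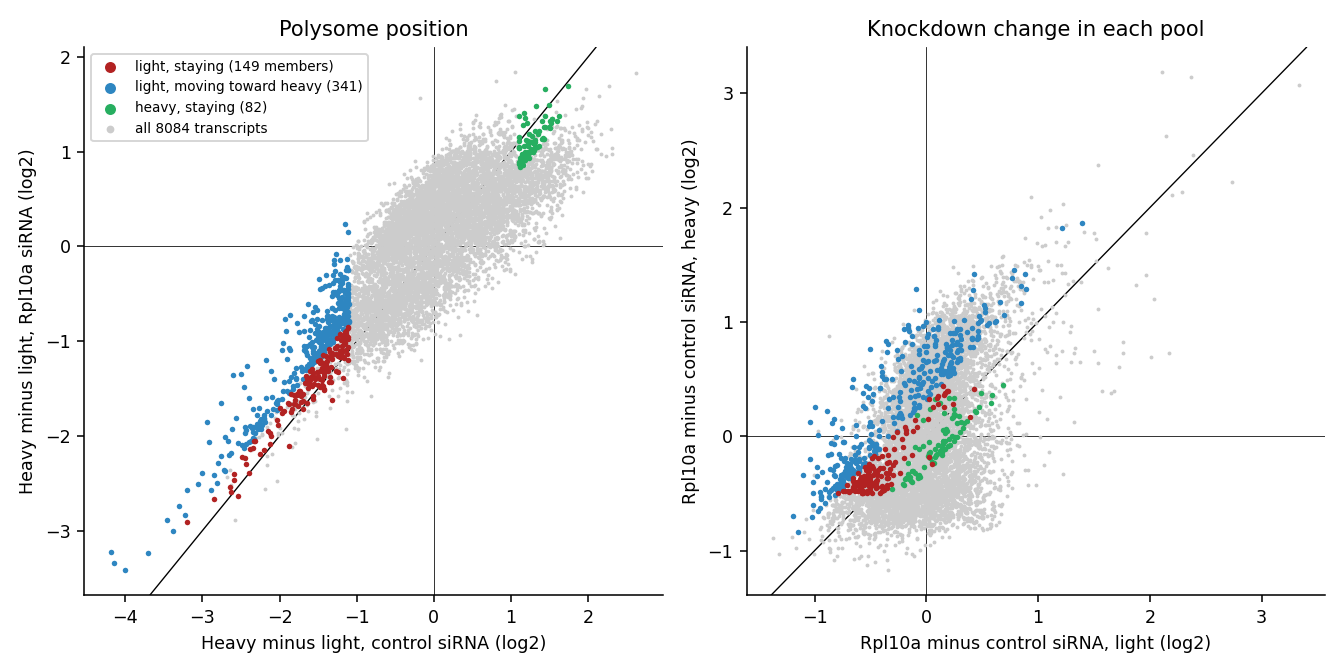
Left, heavy minus light with Rpl10a siRNA (vertical) against control siRNA (horizontal), in log2 units, and right, the change with Rpl10a siRNA in the heavy pool (vertical) against the light pool (horizontal), for all 8084 transcripts (grey), with the 149 light-staying ones in red, light ones that moved toward heavy in blue, heavy-staying ones in green, and a line of equal values. On the left the red points lie at or under -0.85 on the vertical axis, and on the right most lie at the lower left, below 0 in both pools.

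Within the limits, most light-staying transcripts were lower with Rpl10a siRNA than with control siRNA in both pools. In the heavy pool the median change was -0.37, with a range of -0.50 to 0.44, whereas the median over all transcripts was 0.01. There 127 of 149 (85.2%) were below 0, against 49.3% of all transcripts. In the light pool, which the rule holds within 0.3 of the heavy-pool change, the median change was -0.48, with a range of -0.79 to 0.42. The median over all transcripts was 0.02, and 132 of the 149 (88.6%) were below 0, against 47.9% of all. Lower values in both pools were found for 125 of the 149 (83.9%), against 31.9% of all transcripts, 34.9% of the 341 light transcripts that moved toward heavy, and 26.8% of the 82 that sat heavy under the same other limits. Higher values in both pools were found for 15 (10.1%), against 34.7% of all transcripts, 34.3% of the light ones that moved toward heavy and 36.6% of the heavy ones. The limit of 0.3 favours equal signs in the 2 pools, also in the heavy ones. The light ones that moved toward heavy were chosen by a difference above 0.3, which favours unequal signs. Of these 341, 104 were higher in the heavy and lower in the light pool, against 7 of the 149. The contrasts with them and with all transcripts are thus partly built in by the choice. The median change in the heavy minus that in the light pool was 0.14 for the light-staying transcripts, with 129 (86.6%) above 0, and 0.09 for all, with 56.2% above 0. With library medians aligned the light-staying median was 0.03, with 54 (36.2%) below 0, and that of all was -0.02, with 51.4% below 0.

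Among light-staying transcripts, the replicates of the 2 siRNAs separated more often in the light pool. The rule kept the heavy-pool change under 0.5 in size, while the light-pool change reached -0.79. This order is thus partly built in by the choice. Over all transcripts the order was the reverse, with separation in either direction more frequent in the heavy pool. Both light libraries of Rpl10a siRNA were below both of control siRNA for 128 light-staying transcripts (85.9%), where the percentage over all transcripts was 29, and both were above for 7, where it was 32.5. In the heavy pool both Rpl10a siRNA libraries were below both control libraries for 96 (64.4%), where the percentage over all transcripts was 36, and above for 8, where it was 38.1. These are measures from contrasts the rule used, so the counts are a description. Scaling shifts all transcripts of a library nearly alike, so a level is read only beside that of all transcripts. For the same 149, the heavy-pool median was -0.50 with library medians aligned, where that of all transcripts was -0.12, and -0.26 with equal library totals, where that of all was 0.12.

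The 22 light-staying transcripts with a higher heavy-pool value under Rpl10a siRNA were not spread evenly over positions. Ordered by heavy minus light with control siRNA, the 50 lightest transcripts (-3.20 to -1.65) included 2 of them, the next 49 (-1.64 to -1.34) included 5, and the 50 least light (-1.34 to -1.11) included 15. The median light-pool change was -0.55, -0.45 and -0.38 in the same order. The median heavy-pool change was -0.40, -0.36 and -0.32. Over all transcripts 50.7% had a higher heavy-pool value, and this share was not computed by position. Position and both changes were used by the rule and share the control siRNA libraries. These trends can therefore arise from the choice and from shared noise, and are given as a description.

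The lightest of the 149, uc007syc.2, had 33.9 and 42.1 RPM in the heavy and 307.8 and 274 RPM in the light libraries of Rpl10a siRNA, against 51.2 and 50.9 RPM in the heavy and 529.7 and 428.4 RPM in the light libraries of control siRNA. Both pools were lower with Rpl10a siRNA and the libraries of the siRNAs did not overlap in either pool, and heavy minus light was -2.91 with Rpl10a siRNA and -3.20 with control siRNA. The next named, uc007gkm.2, had 20.5 and 32.5 RPM in the heavy and 139.9 and 204.1 RPM in the light libraries of Rpl10a siRNA, against 20.4 and 21.7 RPM and 167.8 and 147.8 RPM in those of control siRNA. Here the siRNAs overlapped in both pools, and the position was as light, at -2.66 with Rpl10a siRNA and -2.85 with control siRNA.

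Near the limit, uc007fos.1 had 97 and 100.8 RPM in the heavy and 183.9 and 173.9 RPM in the light libraries of Rpl10a siRNA, against 106.4 and 129.5 RPM and 254.6 and 255.3 RPM in those of control siRNA. Its heavy minus light was -0.85 with Rpl10a siRNA, the least light value among the 149, and -1.11 with control siRNA. In uc009mie.2 the heavy libraries had 78.2 and 94.7 RPM and the light libraries 184.7 and 196.7 RPM with Rpl10a siRNA, against 117.6 and 125.7 RPM and 283.9 and 251.2 RPM with control siRNA. Both pools were lower by nearly the same amount, at -0.49 in the heavy and -0.48 in the light pool, so its position stayed at -1.14 with Rpl10a siRNA and -1.13 with control siRNA.

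Like uc007gkm.2, 1 more of the named transcripts was higher with Rpl10a siRNA in both pools, and without overlap: uc009nzv.2 had 134.6 and 136.8 RPM in the heavy and 250.3 and 275 RPM in the light libraries of Rpl10a siRNA, against 86.4 and 125.8 RPM and 228 and 238.4 RPM in those of control siRNA. Its libraries of Rpl10a siRNA were above those of control siRNA in both pools, by 0.38 in the heavy and 0.17 in the light pool.

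**Figure D2:**
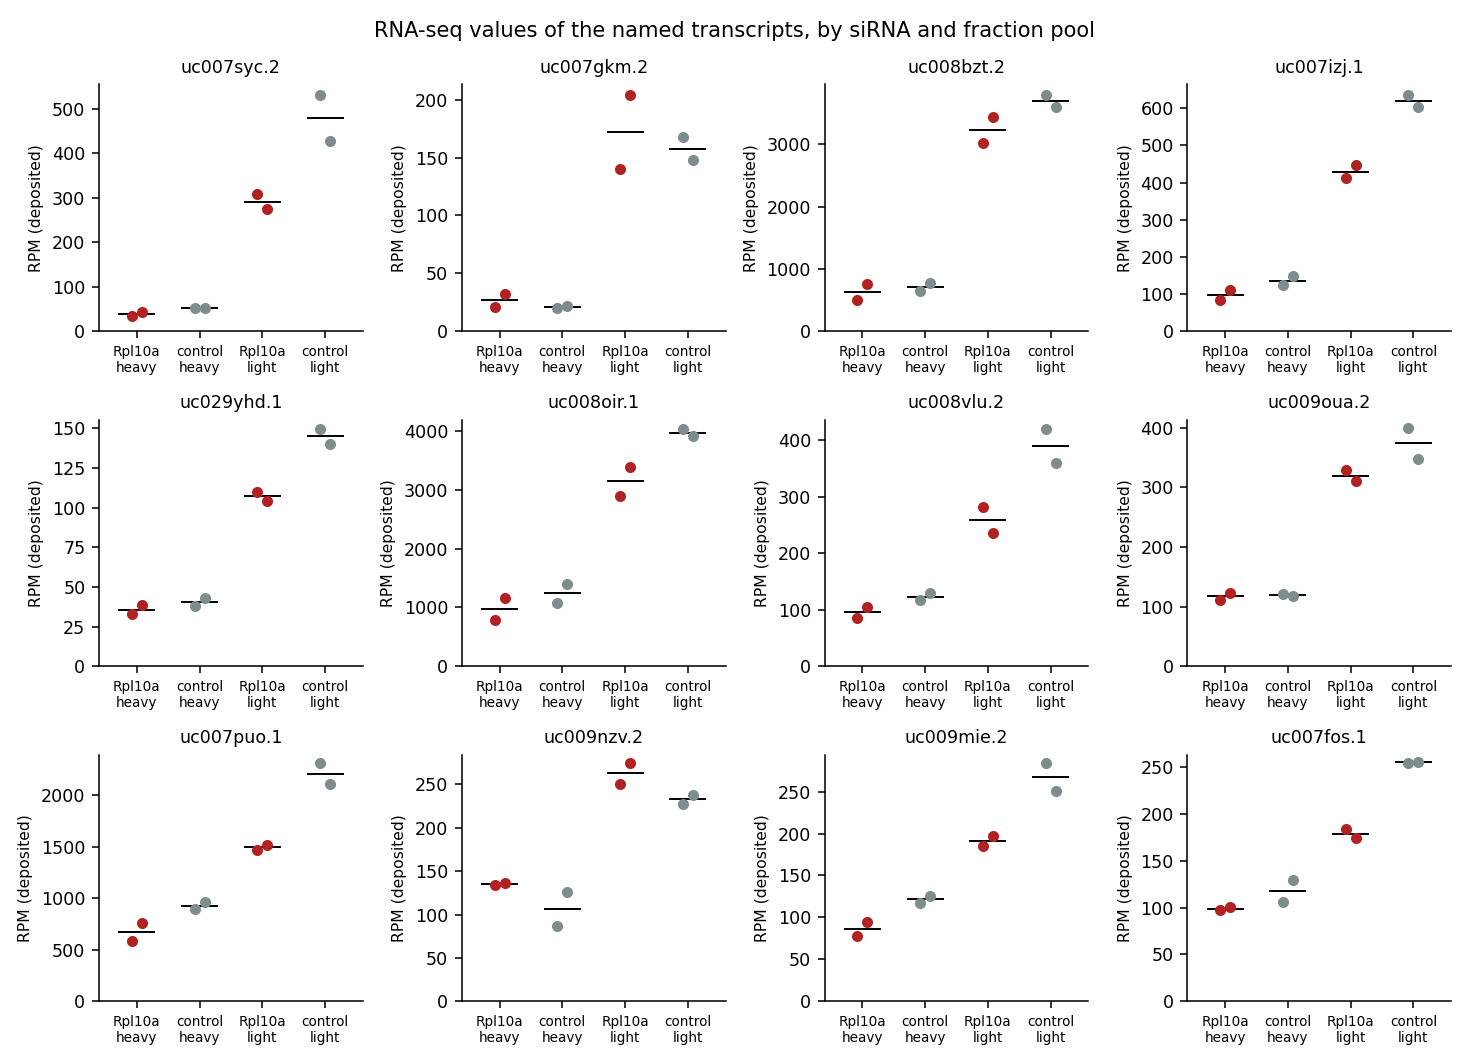
RNA-seq values in RPM (vertical, linear axes from 0) of the 12 named light-staying transcripts in each of the 8 libraries, as points by pool and siRNA, with lines at the group means. For each transcript both heavy libraries lie below both light libraries with either siRNA.

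A light position did not go with low footprint density throughout. RPKM, reads scaled both to library size and to transcript length, allows levels to be compared between transcripts. It was not divided by the amount of mRNA, so more mRNA and more ribosomes per mRNA cannot be told apart in it. In the total libraries the light-staying median was 19.6 RPKM in the 3xFLAG-Rpl10a line (n = 149), where the median of its table was 24.4, 19.0 in the Rps25-3xFLAG line (n = 142), where it was 23.9, and 19.2 in the Rpl22-3xHA line (n = 138), where it was 25.4. The spread around these medians was wide, from 3.3 to 5423 RPKM in the 3xFLAG-Rpl10a line. In that line 42 light-staying transcripts (28.2%) were in the lowest 25% of the table and 23 (15.4%) in the highest 10%. The corresponding numbers were 40 (28.2%) and 22 (15.5%) in the Rps25-3xFLAG line and 46 (33.3%) and 17 (12.3%) in the Rpl22-3xHA line. For comparison, the total median in the 3xFLAG-Rpl10a line was 16.0 RPKM for the light transcripts that moved toward heavy and 69.5 RPKM for the heavy ones under the same other limits.

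Among the light-staying transcripts, the lighter ones had the denser footprints by median. Since density was not divided by the amount of mRNA, this order does not give ribosomes per mRNA. In the 3xFLAG-Rpl10a line the median total density was 63.2 RPKM for the 50 lightest, 19.8 for the next 49 and 12.9 for the 50 least light. The other lines gave the same order, with 81.9, 21.8 and 12.9 RPKM in the Rps25-3xFLAG line and 72.0, 20.5 and 11.95 RPKM in the Rpl22-3xHA line. Densities over 100 RPKM in the 3xFLAG-Rpl10a line were found for 23, 9 and 6 of these transcripts. The rank correlation between position and density in that line was -0.30 over the 149 light-staying transcripts, while over all 8084 it was 0.30. Pearson's r was weaker, at -0.20 and 0.09. Neither was computed for the other light transcripts, so the inverse order may not be particular to the light-staying ones. All these correlations run over transcripts of the same libraries, which are not independent replicates, and are given as a description. The densities of the Rps25-3xFLAG and Rpl22-3xHA lines come from libraries the rule did not use, whereas the total libraries of the 3xFLAG-Rpl10a line entered it through the RPL10A ratio. Position came from the rule in every case. Total densities of the light-staying transcripts also went together between lines. Pearson's r with the 3xFLAG-Rpl10a line was 0.99 for the Rps25-3xFLAG line and 0.95 for the Rpl22-3xHA line. Over all transcripts it was 0.99 and 0.86. In the same order, the rank correlations were 0.98 and 0.90, where those of all transcripts were 0.98 and 0.92. By rank this is therefore no trait of the light-staying transcripts.

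**Figure D3:**
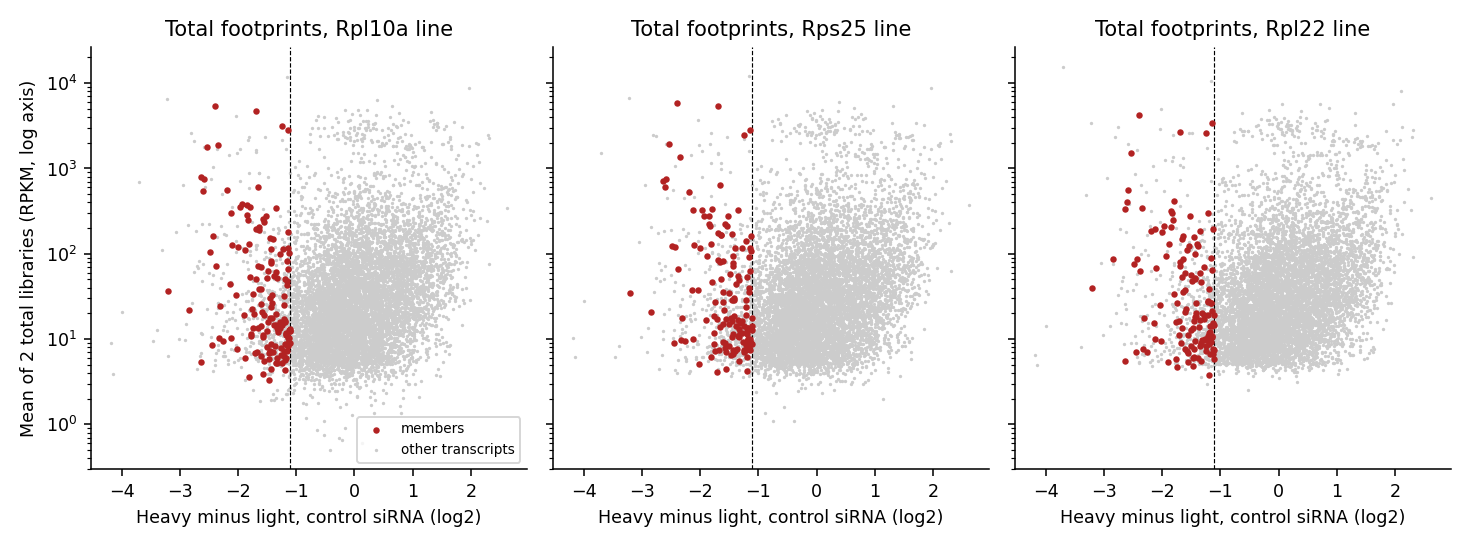
Mean total footprint density in RPKM (log axis, vertical) against heavy minus light with control siRNA (log2, horizontal) in the 3 lines, with light-staying transcripts in red, the others in grey and a dashed line at the position limit of -1.1. The red points reach up to 5423 RPKM in the 3xFLAG-Rpl10a line, 5888 in the Rps25-3xFLAG line and 4193 in the Rpl22-3xHA line, and 23 of the 38 over 100 RPKM in the first of these are among the 50 lightest.

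The highest density belonged to uc008bzt.2, with 4990.4 and 6217.7 RPKM in the RPL10A IP, against 5891.7 and 4954.2 RPKM in the total libraries of the same line. In the RPS25 IP it had 4656.5 and 5636.9 RPKM, against 5770.8 and 6004.7 RPKM in the total libraries, and in the RPL22 IP 4150.4 and 4526.1 RPKM, against 4115.4 and 4271.2 RPKM. IP and total libraries overlapped in the RPL10A and RPL22 sets, and both RPS25 IP libraries were below both totals. The same transcript was far from heavy: it had 505.6 and 748.7 RPM in the heavy and 3024.7 and 3431.6 RPM in the light libraries of Rpl10a siRNA, against 641.1 and 769.8 RPM and 3794.9 and 3597.7 RPM in those of control siRNA. Heavy minus light was -2.39 with either siRNA.

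The other transcript named for its density, uc008oir.1, had 780.3 and 1165 RPM in the heavy and 2896.1 and 3388.7 RPM in the light libraries of Rpl10a siRNA, against 1079.7 and 1400.9 RPM and 4032.5 and 3915.7 RPM in those of control siRNA. Its total density was 2633.7 and 2740.4 RPKM in the Rpl22-3xHA line, 5154.5 and 5538.5 RPKM in the Rps25-3xFLAG line, and 4606.1 and 4954.1 RPKM in the 3xFLAG-Rpl10a line. The Rpl22-3xHA total over the 3xFLAG-Rpl10a total had a median of -0.27 on the log2 scale over 138 of them, where that of all transcripts was -0.02, and 90 (65.2%) were below 0, where 51.8% of all were. It was past 1 log2 unit below for 15 (10.9%) and above for 5 (3.62%), where the percentages over all transcripts were 5.49 and 5.34. The lowest was uc007bvk.2, at -3.47, with 13.5 and 17.3 RPKM in the Rpl22-3xHA line, 156.8 and 163.3 RPKM in the Rps25-3xFLAG line and 191.7 and 170.9 RPKM in the 3xFLAG-Rpl10a line, and it was chosen after its values were seen. The tables of the lines were scaled separately, and the Rpl22 libraries were also processed with another aligner, so line and processing cannot be told apart.

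The RPS25 and RPL22 captures used no library that chose the transcripts, so they could be tested. The RPS25 values are not fully free of the rule, since the rule limits the RPL10A ratio and the ratios of both captures went together across transcripts (Pearson's r = 0.42 over 142 light-staying ones, 0.53 over all 7704). RPL22 ratios did not share this, with r = -0.12 over 138 light-staying transcripts. Those are correlations across transcripts of shared libraries and are given as a description.

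With RPS25, light-staying transcripts were captured about as all transcripts were. The IP over total ratio had a median of 0.00 on the log2 scale (quartiles -0.24 and 0.23, range -1.47 to 0.88), with 71 above and 71 below 0, where the median of all RNA-seq transcripts was 0.01. The light transcripts that moved toward heavy had a median of 0.12 (n = 313), and the heavy ones under the same other limits had -0.12 (n = 82). In every comparison here, the group that moved toward heavy was chosen without the heavy-pool and RPL10A limits. Its RPL10A ratio ran from -1.58 to 2.17, so its median comes from an unlike selection. By limma with Benjamini-Hochberg adjustment at 0.05, 0 of 142 were called, with a smallest adjusted p of 0.0831, where 0.0342% of the table was called higher and 0.0114% lower. At an unadjusted p under 0.05 there were 11 higher (7.75%) and 14 lower (9.86%), where the background was 11.1% and 9.75%. The RPS25 IP libraries were both above both totals for 34 (23.9%), where the background was 27.9%, and both below for 39 (27.5%), where it was 25.9%. All these shares are near the background and are no result about the light-staying transcripts.

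The smallest adjusted p for RPS25 belonged to a low value. The transcript uc029yhd.1 had 66.3 and 60.5 RPKM in the RPS25 IP, against 141.6 and 118.7 RPKM in total libraries, a log2 ratio of -1.02 (SE 0.13, limma adjusted p = 0.0831). The libraries did not overlap, yet the ratio missed the threshold. Next lowest among those eligible for naming was uc008vlu.2, with 431.2 and 419.5 RPKM in the RPS25 IP, against 597.3 and 691.4 RPKM in total libraries, a ratio of -0.59 (SE 0.10, limma adjusted p = 0.0932). On the high side, uc009mie.2 had 149.7 and 171.8 RPKM in the RPS25 IP, against 109.1 and 106.7 RPKM, a ratio of 0.57 (SE 0.11, limma adjusted p = 0.105). For uc007syc.2, the lightest of the 149, the values were 58 and 45 RPKM in the RPS25 IP, against 42.5 and 27.8 RPKM, a ratio of 0.56 (SE 0.23, limma adjusted p = 0.240). Its replicates lay far apart in both groups, and the lower IP value was only just above the higher total value. The ratio of uc007syc.2 ran from 0.26 to 0.86 when each library was left out.

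With RPL22 the picture was similar and the spread was narrower. The ratio had a median of 0.01 (quartiles -0.16 and 0.18, range -0.57 to 0.54), with 72 above and 66 below 0, where the median of all RNA-seq transcripts was -0.04. The light transcripts that moved toward heavy had a median of -0.07 (n = 298), and the heavy ones under the same other limits had 0.00. By limma 0 of 138 were called, with a smallest adjusted p of 0.109, and 0% of the table was called in either direction. At an unadjusted p under 0.05 there were 19 higher (13.8%) and 16 lower (11.6%), where the background was 8.87% and 11.3%. The RPL22 IP libraries were both above both totals for 34 (24.6%), where the background was 21.5%, and both below for 35 (25.4%), where it was 31.4%.

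Among transcripts eligible for naming, the highest RPL22 ratios were 0.50 in both uc007puo.1 and uc007izj.1. The first of them had 3318.6 and 3925.2 RPKM in the RPL22 IP, against 2274.6 and 2866 RPKM in total libraries (SE 0.13, limma adjusted p = 0.122). The other had 280.3 and 242 RPKM in the RPL22 IP, against 181.4 and 186.8 RPKM in total libraries (SE 0.09, limma adjusted p = 0.109). The lowest ratios were -0.45 in uc009nzv.2, with 60 and 69.5 RPKM in the RPL22 IP, against 93 and 84.6 RPKM, and -0.44 in uc009oua.2, with 24.5 and 27.2 RPKM in the IP, against 32.7 and 38.3 RPKM. Their limma adjusted p-values were 0.116 and 0.127, so none of these ratios passed the threshold although IP and total libraries did not overlap.

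**Figure D4:**
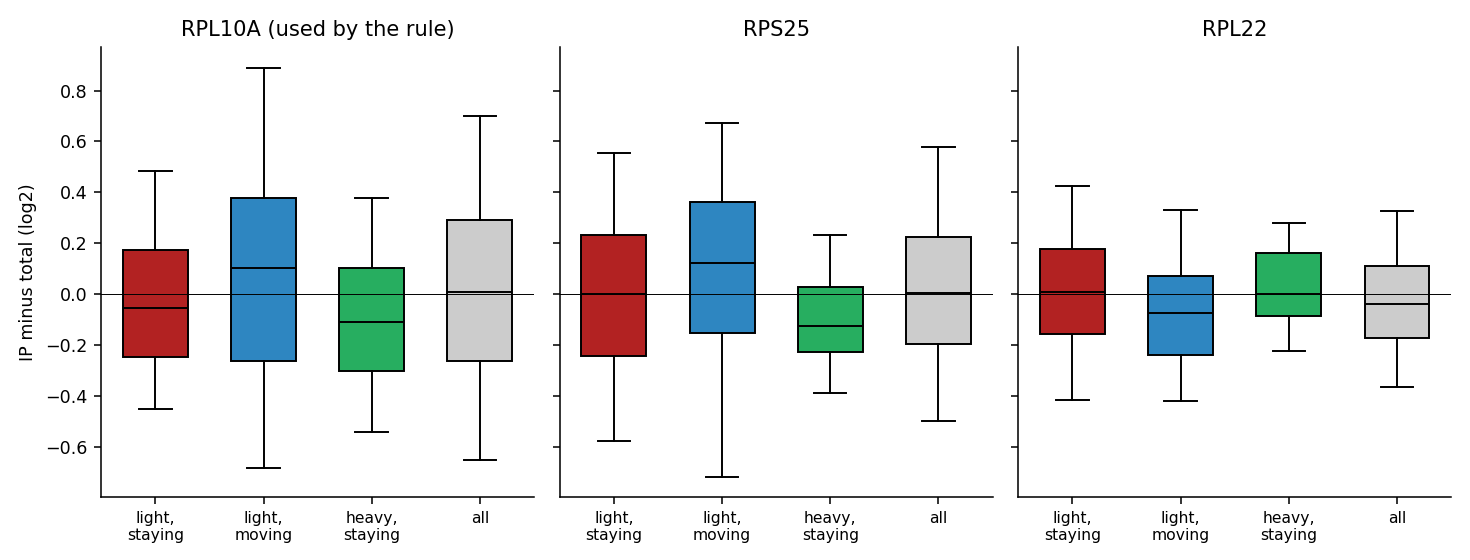
Log2 ratio of IP over total (vertical) for RPL10A, RPS25 and RPL22, in light-staying transcripts, light transcripts that moved toward heavy, heavy-staying transcripts and all transcripts. Boxes give quartiles and median, whiskers the 5th and 95th percentiles. The RPL10A ratio was limited by choice in the light-staying and heavy-staying transcripts only. The light-staying medians lie at -0.05 for RPL10A, 0.00 for RPS25 and 0.01 for RPL22.

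Whether the 2 captures differed for a transcript was tested directly, as the RPS25 ratio minus the RPL22 ratio, over the 8049 transcripts common to both tables. Of 135 light-staying transcripts, 1 was called higher (0.741%) and 5 lower (3.70%) by limma at an adjusted 0.05, where the background was 1.74% higher and 1.48% lower. At an unadjusted p under 0.05 there were 15 higher (11.1%) and 21 lower (15.6%), where the background was 12.8% and 9.63%. The 6 calls in all are 4.44% of the 135, where 3.22% of all transcripts were called, and are no result about the light-staying transcripts as a group. By direction, lower calls were above and higher calls below the background, but these are few transcripts and the split was not tested. The tagged line, the antibody and the lysis buffer, which for the RPL22 capture listed no heparin, differed together between the captures and cannot be told apart.

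The 1 transcript with more RPS25 than RPL22 capture was uc009mie.2. Its RPL22 IP had 167.5 and 168.8 RPKM, against 200.7 and 185.2 RPKM in total libraries, which is a ratio of -0.20 beside the 0.57 in RPS25 given above. The difference was 0.76 (SE 0.13, limma adjusted p = 0.0275), and IP and total libraries lay apart in opposite directions.

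The 5 with less RPS25 than RPL22 capture were led by uc007izj.1, at -0.90 (SE 0.20, limma adjusted p = 0.0458). It had 341 and 462.3 RPKM in the RPS25 IP, against 497.3 and 550.8 RPKM in total libraries, and the high RPL22 ratio given above. In uc008nmm.2 the RPS25 IP had 198.5 and 175.5 RPKM, against 254.4 and 302.9 RPKM, and the RPL22 IP 122.4 and 114 RPKM, against 94.3 and 96.4 RPKM, a difference of -0.88 (SE 0.15, limma adjusted p = 0.0277). Both were below total in the RPS25 and above total in the RPL22 capture, with no overlap.

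The low RPS25 value of uc029yhd.1 was matched by a smaller deficit in RPL22, with 212 and 221.9 RPKM in the RPL22 IP, against 247.2 and 250.7 RPKM, so the difference was -0.82 (SE 0.15, limma adjusted p = 0.0295). In uc007gfi.2 the RPS25 IP had 212.5 and 198 RPKM, against 271.3 and 277.4 RPKM, and the RPL22 IP 364.3 and 322.6 RPKM, against 259.5 and 287.8 RPKM, a difference of -0.74 (SE 0.13, limma adjusted p = 0.0294). In uc009eve.1 most of the difference of -0.50 (SE 0.11, limma adjusted p = 0.0446) lay on the RPL22 side, with 424.7 and 424.8 RPKM in the RPL22 IP, against 307.1 and 326.6 RPKM, while the RPS25 IP had 207.7 and 213.7 RPKM, against 217.2 and 227.3 RPKM. The transcripts uc007gfi.2, uc008nmm.2 and uc009eve.1 are named because they were called, outside the rule for naming. The RPL10A ratio, held under 0.6 in size by the rule, was 0.33 in uc009mie.2, -0.14 in uc007izj.1 and -0.60 in uc008nmm.2. It was -0.55 in uc029yhd.1, -0.08 in uc007gfi.2 and -0.30 in uc009eve.1. In each of them it had the sign of the RPS25 ratio, so that direction was not particular to RPS25, and this was not tested.

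These 6 calls depend on the spread estimate and on single libraries. With no variance trend in limma 0 of the 135 were called, where 0.795% of all transcripts were. Without the first RPS25 IP library 18 (13.3%) were called, where 12.03% of all were, and without the second 29 (21.5%), where 18.6% of all were. Without each of the other 6 libraries in turn the count was 0, and at most 1 transcript of the table was called.

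**Figure D5:**
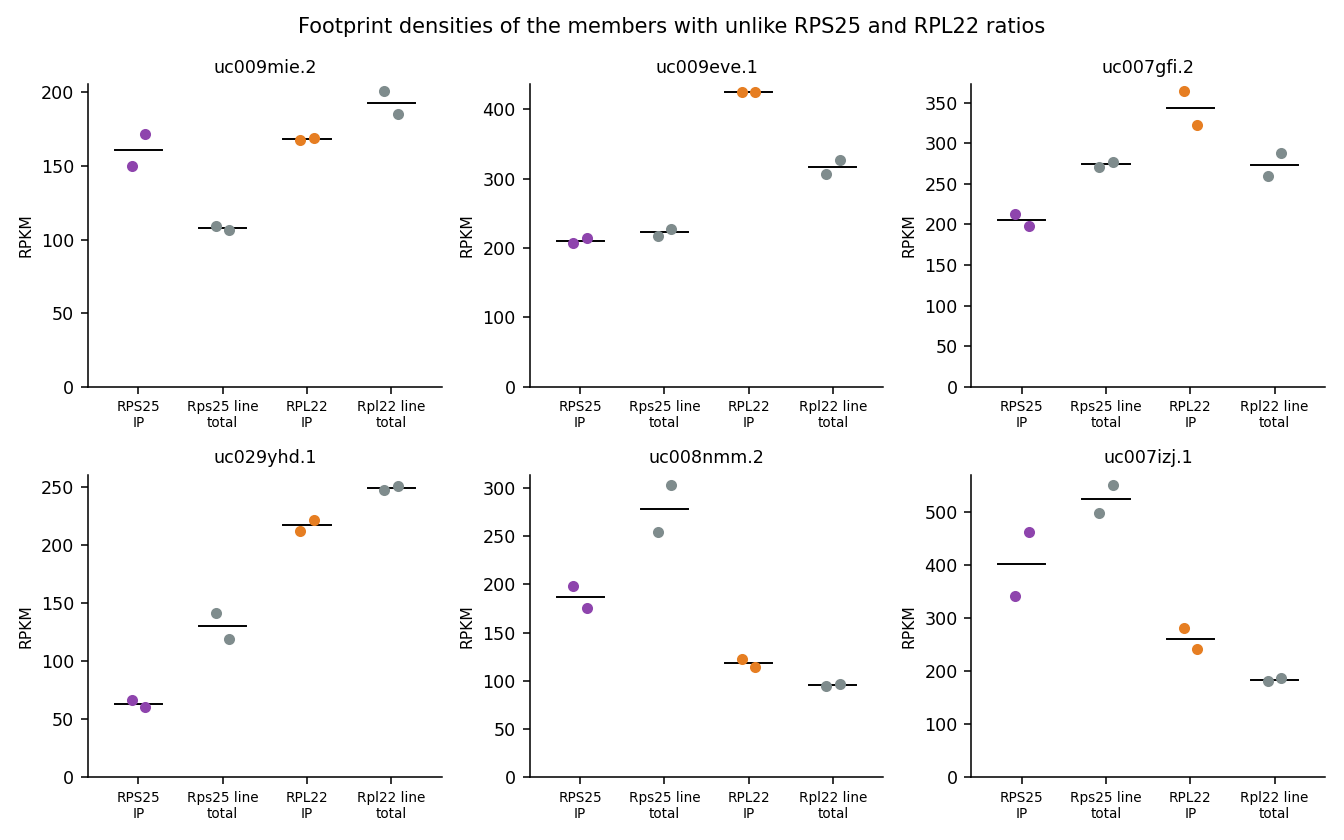
Footprint density in RPKM (vertical) of the 6 called light-staying transcripts in each IP and total library of the Rps25-3xFLAG and Rpl22-3xHA lines, as points with lines at the group means. In uc009mie.2 the RPS25 IP points lie above and the RPL22 IP points below their totals, and in uc007izj.1, uc008nmm.2, uc007gfi.2 and uc009eve.1 the reverse holds.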

How the data were processed

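Mouse E14 embryonic stem cells gave 12 Ribo-Seq and 8 RNA-seq libraries in 10 groups of 2. For Ribo-Seq the authors deposited RPKM values per transcript, per the file headers. For RNA-seq the deposited values, RPM per the file headers, sum to between 943664 and 1067209 per library and were treated as a scaled signal, since plain RPM would give every library the same sum. Trimming and alignment tools come from the submitters' processing notes, which list cutadapt and Bowtie2 throughout, add STAR for RNA-seq and for the Rpl22-3xHA line, and give mm10 as the build, without versions. The labels name an mRNA library kit for the RNA-seq libraries and also describe their RNA as depleted of rRNA, and those of the total Rpl22-3xHA libraries also name the anti-HA antibody.

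Whole counts could not be recovered, because values are rounded to 1 decimal, so no count test was run. Ratios were computed on log2(value + 1), which understates the change of low values; the RPL10A ratio of the rule is the log2 ratio of the mean RPKM + 1. Tests used limma 3.58.1 in R 4.3.3 with a variance trend, two-sided, adjusted by Benjamini-Hochberg over all transcripts of a table, and were checked on simulated data. Tables and figures used Python 3.11.15, pandas 2.3.3, numpy 2.4.6 and matplotlib 3.10.9. Identical rows among light-staying transcripts numbered 0. Of the 149, 142 were in the RPS25 table, 138 in the RPL22 table, 135 in both and 4 in neither. There was no further filter on low values.

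Named transcripts were, among those at or above the median mean RPM of the 149, the 2 lightest, the 2 nearest to the position limit, the 2 highest and 2 lowest RPS25 and RPL22 ratios with at least 10 RPKM, and the 2 with the highest total density, 12 in all. The members, comparison groups and this rule were chosen with earlier results of these data known. Alternatives were pseudocounts of 0.1 and 5, a minimum of 10, no variance trend, medians aligned, equal totals, a replicate block and leaving out each library. UCSC identifiers matched 0 entries of the name tables, so gene lists, markers and sequences were not used here.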

Additional observations from a re-analysis of the deposited data

Results flagged for a closer look

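In 6 light-staying transcripts the RPS25 ratio (IP over total, log2) differed from the RPL22 ratio by limma at an adjusted 0.05, which is a test of the difference itself. They are 4.44% of 135, where 3.22% of all transcripts were called, so the share in both directions together is near the background. By direction 1 was higher (0.741%) and 5 lower (3.70%), where 1.74% and 1.48% of all were, and this split was not tested. The difference was 0.76 in uc009mie.2, -0.50 in uc009eve.1, -0.74 in uc007gfi.2, -0.82 in uc029yhd.1, -0.88 in uc008nmm.2 and -0.90 in uc007izj.1. In each of them the RPL10A ratio, which the rule limited, had the sign of the RPS25 ratio. Line, antibody and lysis buffer differ with the capture and cannot be told apart. With 2 libraries per group, none of the groups was large enough to look for single deviating samples.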

How the results depend on the processing

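The number of light-staying transcripts was 146 with a pseudocount of 0.1, 162 with 5, 113 with library medians aligned, 193 with equal totals and 144 with a minimum of 10 RPM, and 89 to 186 when each library was left out. Of the 149, 59 were found again with medians aligned, 71 and 81 with replicate 1 or 2 alone, and 63 to 144 when each library was left out. The median RPS25 ratio was -0.0448 with medians aligned and -0.0395 to 0.0278 when each library was left out. The median RPL22 ratio was 0.0304 with a minimum of 10 RPKM, 0.0373 with medians aligned, -0.0836 with equal totals and -0.0238 to 0.0283 when each library was left out. Those moves are of the size of the medians themselves, so neither median has a stable sign. The median heavy-pool change was -0.31 with a pseudocount of 5, -0.50 with medians aligned, -0.26 with equal totals and -0.48 to -0.22 when each library was left out.

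With the replicate number as a block, 17 light-staying transcripts were called for RPL22 (11 higher and 6 lower, with 392 higher and 300 lower in its table; 12.3% of light-staying and 8.06% of all transcripts). They include the named uc007puo.1, uc007izj.1, uc009nzv.2 and uc009oua.2, with limma adjusted p = 0.00417, 0.00617, 0.0146 and 0.0193. The block gave 0 calls for the difference between captures, so none of the 6 remained. Same-numbered libraries deviated together with r = 0.01 in the Rps25-3xFLAG line and 0.18 in the Rpl22-3xHA line, and no label ties the numbers, so they were not taken as pairs. Calls for RPL22 were 0 to 0 when each library was left out, and those for the difference were 0 to 29. With no variance trend the difference gave 0 calls. Its count was 9 with a minimum of 10 RPKM, 8 with medians aligned, 7 with equal totals and 7 with a pseudocount of 5. The causes of these moves were not tested. Depth is unknown, so a low value cannot be given a counting error.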
